A study of Rattus norvegicus with 7 samples.

Results

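Transcripts of 6 genes of the neurotrophin family, the ligand genes Bdnf and Ntf3 and the receptor genes Ntrk2, Ntrk3, Ngfr and Sort1, were measured in hippocampus and hypothalamus of rats on an omega-3 fatty acid diet. The genes were chosen by symbol, with earlier results of these data known, and all 6 were found in both tables, among 16514 symbols listed in either table. Where a symbol had several loci, the locus with the highest mean was taken. All libraries were from male Sprague Dawley rats, 2 months of age when the diet began, which received docosahexaenoic acid (DHA) in their food over 6 weeks. Hippocampus gave 4 libraries and hypothalamus 3, each made from poly-A RNA of whole dissected tissue. Because the chow-fed animals of the study were not analysed here, every value is one under the DHA diet and says nothing of the diet's effect. The labels do not say whether libraries of a tissue came from separate animals, and the spread between libraries may be partly technical.

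Neurotrophins are secreted growth factors that are made as precursors and cleaved to a mature form. Mature BDNF, the product of Bdnf, signals through the receptor tyrosine kinase TrkB (Ntrk2), and neurotrophin-3, the product of Ntf3, signals mainly through TrkC (Ntrk3). The p75 receptor (Ngfr) binds all mature neurotrophins with similar affinity and forms, with sortilin (Sort1), a receptor for the uncleaved precursors. Sortilin also sorts the BDNF precursor inside the cell. In hippocampus, BDNF is best known for its part in synaptic plasticity, and in hypothalamus for its part in the control of food intake.

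Of the 6 genes, 3 were matched in the promoter table of RefSeq (build GRCr8), Bdnf, Ntf3 and Sort1, and not Ntrk2, Ntrk3 and Ngfr. The matched genes were those with higher transcript levels in hippocampus, as described further on. Each window runs from 250 bases before to 50 after a transcript start. Bdnf, which is transcribed from several alternative starts, had 6 windows, Ntf3 had 3 and Sort1 had 1, and some of them overlap. Of these 10 windows, 4 that hold a searched motif are shown, at least 1 for each matched gene, and capitals mark that motif's letters on either strand. Each is printed on its own strand, 5′ to 3′, and the coordinates are those of GRCr8, not of rn5, the build named in the submitters' processing notes.
Bdnf chr3:116637608-116637907 (+), CRE half-site: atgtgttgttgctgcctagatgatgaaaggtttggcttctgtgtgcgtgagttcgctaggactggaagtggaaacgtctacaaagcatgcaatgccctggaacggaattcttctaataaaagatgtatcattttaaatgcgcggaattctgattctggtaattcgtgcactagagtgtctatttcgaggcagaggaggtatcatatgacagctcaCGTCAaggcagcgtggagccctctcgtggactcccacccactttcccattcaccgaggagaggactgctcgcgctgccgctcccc
Bdnf chr3:116620585-116620884 (+), E-box: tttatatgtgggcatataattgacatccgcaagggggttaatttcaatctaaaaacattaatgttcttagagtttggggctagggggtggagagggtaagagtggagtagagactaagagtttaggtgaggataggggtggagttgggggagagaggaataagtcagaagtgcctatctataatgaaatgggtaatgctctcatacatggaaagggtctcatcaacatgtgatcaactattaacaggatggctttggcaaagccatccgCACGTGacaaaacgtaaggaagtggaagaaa
Ntf3 chr4:160668858-160669157 (-), GC box: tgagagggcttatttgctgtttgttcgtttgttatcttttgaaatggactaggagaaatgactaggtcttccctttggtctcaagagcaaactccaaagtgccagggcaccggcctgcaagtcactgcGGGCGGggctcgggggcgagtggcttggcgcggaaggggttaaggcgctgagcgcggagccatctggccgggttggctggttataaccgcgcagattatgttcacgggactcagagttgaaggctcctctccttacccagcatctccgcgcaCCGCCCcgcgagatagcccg
Sort1 chr2:198612245-198612544 (+), GC box: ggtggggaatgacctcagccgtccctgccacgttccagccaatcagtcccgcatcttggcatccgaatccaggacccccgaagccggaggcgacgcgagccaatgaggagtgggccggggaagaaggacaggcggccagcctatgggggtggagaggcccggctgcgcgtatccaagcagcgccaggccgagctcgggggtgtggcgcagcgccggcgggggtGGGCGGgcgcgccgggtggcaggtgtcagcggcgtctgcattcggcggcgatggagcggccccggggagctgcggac
The letters TGACG, the half-site of the cAMP response element (CRE) through which CREB acts, occurred in 1 of the 10 windows, a Bdnf window, and in 21.2% of all 33469 windows of the table. The full palindrome TGACGTCA, which contains that half-site on both strands, occurred in none of the 10 and in 1.83% of all. The E-box CACGTG occurred in 1 Bdnf window and in 6.42% of all, and TATAAA occurred in the same Bdnf window and in 14.2% of all. The GC box GGGCGG occurred in 5 of the 10 windows, at all 3 genes, and in 33.1% of all. The Sort1 window held 33 CpG dinucleotides and was 72.3% G or C, whereas the printed Bdnf windows held 15 and 4 CpG at 50% and 42.7% G or C. The median over all windows was 7 CpG. The deposited values are per gene and do not say which Bdnf start was used. These matches describe the letters of each window only.

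Values are FPKM, fragment counts divided by transcript length and library size, so levels of different genes can be set side by side within a library. Library sums ranged from 370020 to 391349 FPKM in hippocampus and from 443335 to 471484 FPKM in hypothalamus, and depth in reads is unknown. The dissections matched their labels by markers. All 5 hippocampal neuron markers found were higher in every hippocampus library, and all 9 hypothalamic markers were higher in every hypothalamus library. Replicate 1 of each tissue stood apart: 286 of 7586 hippocampal loci and 182 of 8129 hypothalamic loci read under 0.1 times the lowest other library there, against at most 11 in any other library. None of these loci belonged to the 6 genes, and the differences of the 6 genes between tissues are given below without replicate 1 as well.

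Among the ligands, Bdnf (loci XLOC_017655 in hippocampus and XLOC_016764 in hypothalamus) read 11.99, 12.7, 9.45 and 13.6 FPKM in hippocampus replicates 1 to 4. In hypothalamus replicates 1 to 3 it read 5.09, 3.76 and 3.85 FPKM. Every hippocampus library lay above every hypothalamus library, and the lowest hippocampus library, replicate 3, still exceeded the highest hypothalamus library, replicate 1. The means were 11.9 ± 1.79 FPKM (SD, n = 4) and 4.23 ± 0.740 FPKM (SD, n = 3). Bdnf thus exceeded 68.0% of the 15805 symbols found in both tables in hippocampus and 47.2% of them in hypothalamus.

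Ntf3 (XLOC_020944 and XLOC_019866) was the less abundant ligand in all 7 libraries. In hippocampus it read 6.57, 8.30, 5.97 and 6.38 FPKM, and in hypothalamus 1.07, 1.46 and 0.992 FPKM. The tissues did not overlap, and replicate 2 was the highest library of each. The means were 6.80 ± 1.03 FPKM (SD, n = 4) and 1.18 ± 0.252 FPKM (SD, n = 3), so that Ntf3 was close to the minimum of 1 FPKM used for comparisons in hypothalamus.

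Among the Trk receptors, Ntrk2 (XLOC_012053 and XLOC_011496) read 104, 117, 106 and 134 FPKM in hippocampus, and its hypothalamus libraries read 171, 233 and 243 FPKM. Every hypothalamus library lay above every hippocampus library, and replicate 1 was the lowest library of both tissues. Means were 115 ± 13.5 FPKM (SD, n = 4) and 216 ± 38.8 FPKM (SD, n = 3), above 96.7% and 98.1% of symbols. The gene encodes the full-length kinase and truncated forms that lack it, and the value per locus does not separate them.

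Ntrk3 (XLOC_002136 and XLOC_002126) read 19.6, 24.5, 21.1 and 22.2 FPKM in hippocampus, and in hypothalamus 23.5, 25.3 and 28.4 FPKM. The ranges overlapped, since hippocampus replicate 2 lay above hypothalamus replicate 1. Means were 21.8 ± 2.08 FPKM (SD, n = 4) and 25.7 ± 2.52 FPKM (SD, n = 3).

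Of the receptors that bind precursors, Ngfr (XLOC_005509 and XLOC_005313) read 0.548, 0.409, 0.360 and 0.364 FPKM in hippocampus, against 2.46, 2.26 and 3.10 FPKM in hypothalamus. It was the lowest of the 6 genes in hippocampus and lay under 1 FPKM in each of those libraries, while all hypothalamus libraries were above 2 FPKM. Means were 0.420 ± 0.0879 FPKM (SD, n = 4) and 2.61 ± 0.439 FPKM (SD, n = 3). Its partner Sort1 (XLOC_014833 and XLOC_014109) read 112, 126, 122 and 125 FPKM in hippocampus, against 39.3, 46.3 and 41.0 FPKM in hypothalamus, with no overlap. Means were 121 ± 6.43 FPKM (SD, n = 4) and 42.2 ± 3.66 FPKM (SD, n = 3). Sort1 was the only one of the 6 genes with a further locus, in the hippocampus table alone, which read 0.344, 1.1996, 0.434 and 2.72 FPKM in replicates 1 to 4.

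**Figure D1:**
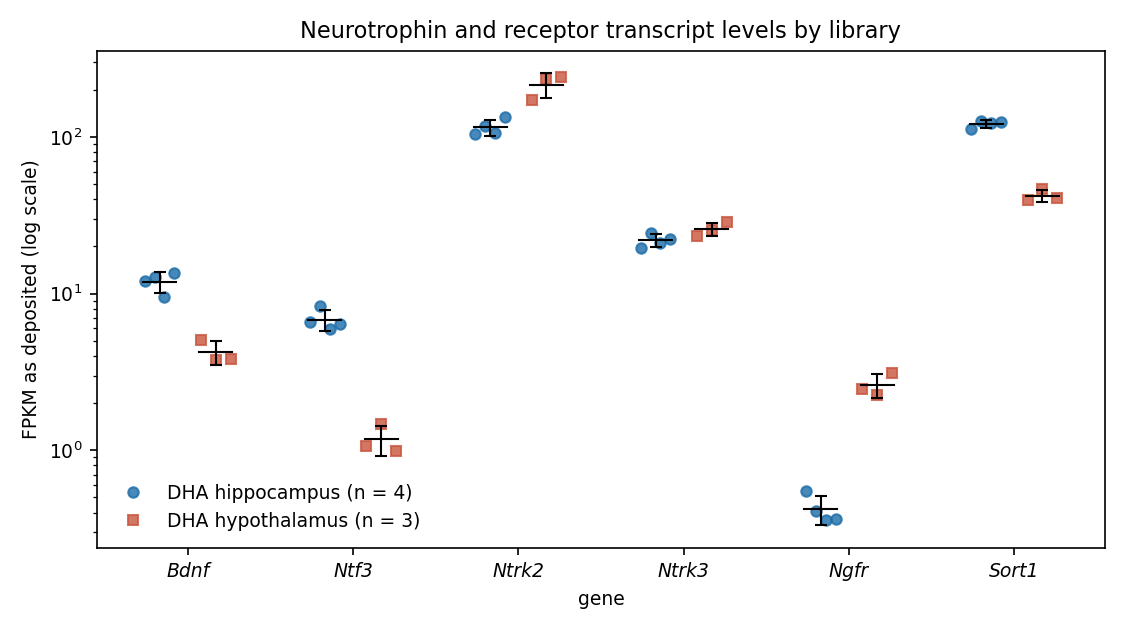
Deposited FPKM (log axis) of the 6 genes in each library, circles for the 4 DHA hippocampus libraries and squares for the 3 DHA hypothalamus libraries, with black lines for the mean and SD. Bdnf, Ntf3 and Sort1 are higher in every hippocampus library, Ntrk2 and Ngfr in every hypothalamus library, and Ntrk3 overlaps.

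The order of the levels differed between the tissues. In hippocampus the order by mean was Sort1, Ntrk2, Ntrk3, Bdnf, Ntf3 and Ngfr. Sort1 and Ntrk2 had overlapping ranges there and kept that order in 3 of 4 libraries, with a ratio of means of 1.05. Every other pair of neighbours kept its order in all 4 libraries without overlap. In hypothalamus the order was Ntrk2, Sort1, Ntrk3, Bdnf, Ngfr and Ntf3, and no neighbours overlapped. Ntrk2 was 5.11 times Sort1 there, and Ngfr, at the bottom of the hippocampal order, was 2.22 times Ntf3.

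Between libraries of a tissue, the highest value of a gene was between 1.13 times the lowest (Sort1 in hippocampus) and 1.52 times the lowest (Ngfr in hippocampus). For the 5 genes other than Ngfr, the SD of log2(FPKM + 1) was between 0.0777 for Sort1 and 0.210 for Bdnf in hippocampus, where the median over 10033 symbols of at least 1 FPKM was 0.227. In hypothalamus, with Ngfr included, it was between 0.1201 for Sort1 and 0.274 for Ntrk2, and Ntrk2 was the only one of the 6 above the median of 0.246 over 10444 symbols. After scaling of all libraries to 1 common sum, as for the comparison of tissues below, Bdnf deviated most from its hippocampal mean in replicate 3, by -0.29 on the log2 scale, and was highest in replicate 4, by 0.19. Ntrk2 was likewise highest in hippocampus replicate 4, by 0.22. In hypothalamus replicate 1, Bdnf was 0.28 above its mean and Ntrk2 was 0.29 below it (-0.29).

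To compare the tissues, the values of the 15805 shared symbols were scaled to sum to 1000000 in each library. Each tissue has its own table, quantified separately, so tissue and table cannot be told apart and no test was made across them. A symbol was called when its libraries did not overlap between tissues and mean log2(value + 1) differed by at least 1, which is 2-fold. Compared were the 10736 symbols whose mean reached 1 FPKM in hippocampus or hypothalamus. Of these, 27.9% were called in either direction, 14.5% as higher in hippocampus and 13.4% as higher in hypothalamus. In FPKM as deposited the split over all symbols was 928 higher in hippocampus to 1819 in hypothalamus, against 1560 to 1439 after scaling. Of the 6 genes, 3 were called higher in hippocampus and 1 in hypothalamus, under each scaling. Both means reached 1 FPKM for 5 of the 6, of which 3 were called higher in hippocampus and none in hypothalamus. Among the 9741 symbols with both means that high, 24.6% were called, 14.0% towards hippocampus and 10.6% towards hypothalamus. Ngfr passed that minimum through hypothalamus alone, so its call partly follows from the filter and supports nothing by itself. In whole tissue, fewer cells of a type and less RNA per cell cannot be told apart.

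Ntf3 differed by 2.46 on the log2 scale, hippocampus minus hypothalamus, with a pooled SD between libraries of 0.21. Its rescaled means of 19.5 and 2.76 differed 7.08-fold. Sort1 differed by 1.81 (pooled SD 0.10), with rescaled means of 348 and 98.8, a ratio of 3.52. Bdnf differed by 1.70 (pooled SD 0.22), with rescaled means of 34.3 and 9.92, a ratio of 3.46. These 3 differences lay above those of 94.0% (Bdnf), 94.7% (Sort1) and 97.4% (Ntf3) of all compared symbols. Without replicate 1 of either tissue they were 2.43 for Ntf3, 1.81 for Sort1 and 1.82 for Bdnf.

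Towards hypothalamus, Ngfr differed by -1.68 (pooled SD 0.16) and its rescaled means of 1.21 and 6.08 differed 5.02-fold. With 5 instead of 1 added before the log2, Ngfr differed by -0.83 and was not called. Ntrk2 differed by -0.59 (pooled SD 0.20), 1.52-fold in rescaled means, so its libraries separated by tissue without reaching 2-fold, as did those of many genes. Without the 2-fold rule, 3 of the 6 genes were higher in every hippocampus library and 2 in every hypothalamus library, where 52.6% of all compared symbols did not overlap, 28.2% towards hippocampus and 24.4% towards hypothalamus. Without replicate 1 the differences were -1.78 for Ngfr and -0.70 for Ntrk2. Ntrk3 differed by 0.06 (pooled SD 0.11), or 0.055 without replicate 1, and overlapped. In FPKM as deposited its difference turned to -0.23. The median over all compared symbols moved in the same way, from 0.05 after rescaling to -0.21 as deposited, whereas the other 5 genes kept their direction under each of the 4 scalings.

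**Figure D2:**
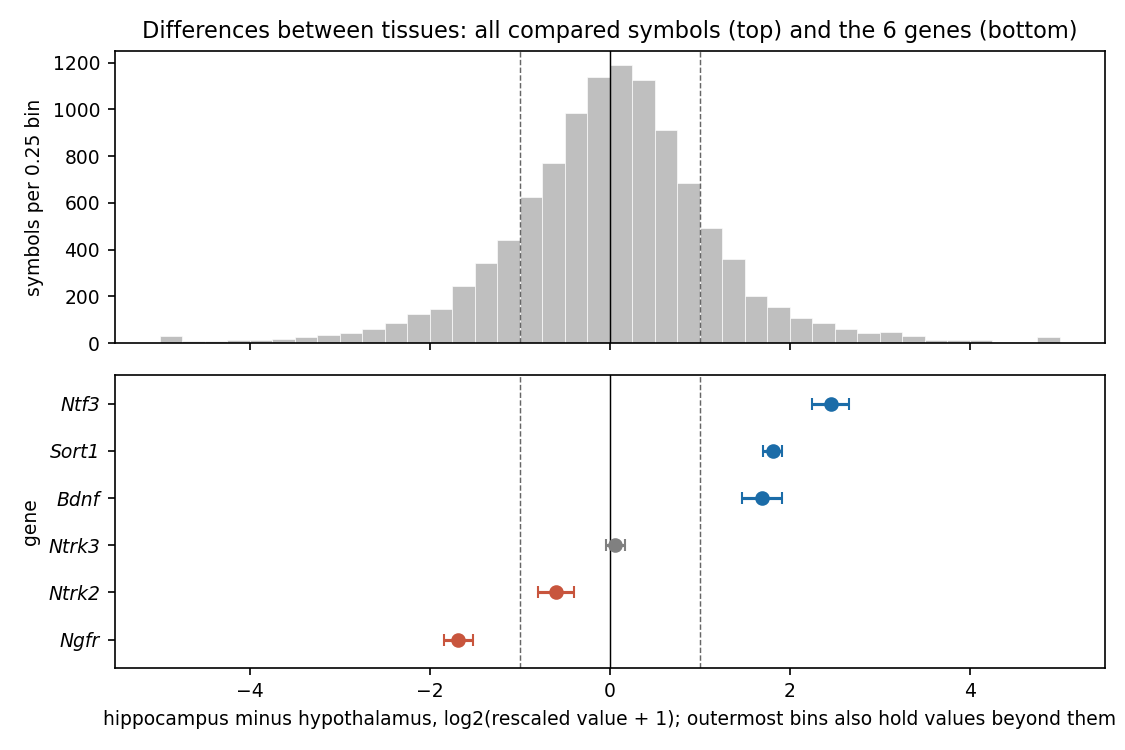
Difference between tissues on the log2(rescaled value + 1) scale, hippocampus minus hypothalamus: a histogram of the 10736 compared symbols above, and the 6 genes below with their pooled SD between libraries. Dashed lines mark 2-fold; Ntf3, Sort1 and Bdnf lie beyond it to the right, Ngfr beyond it to the left, and Ntrk2 and Ntrk3 lie within it. Blue and red mark genes whose libraries did not overlap, higher in hippocampus and in hypothalamus, and grey marks Ntrk3, whose libraries overlapped.

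Marker lists of cell types were examined beside these results. Summed levels are given in FPKM as deposited, on which library totals were larger in hypothalamus, and single markers were compared after scaling. The 5 hippocampal neuron markers summed to between 809 and 1136 FPKM in hippocampus and to between 21.4 and 26.8 FPKM in hypothalamus, the direction of Bdnf, Ntf3 and Sort1, and the part of these neurons in those differences was not tested. TrkB, including its truncated form, is known from astrocytes as well as neurons. Of the 5 astrocyte markers found (of 6 listed), 3 were higher in every hypothalamus library. Their summed level ranged from 440 to 620 FPKM in hippocampus and from 842 to 1235 FPKM in hypothalamus, and none was listed at 0. Within hypothalamus, replicate 1 was lowest for Ntrk2 while its astrocyte sum, 973 FPKM, lay between those of replicates 2 and 3. The part of astrocytes in the Ntrk2 difference was not tested.

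Ngfr is known from cholinergic neurons of the basal forebrain and from cells of vessels and meninges. Of 6 cholinergic markers, 4 were higher in every hypothalamus library and Chat, the enzyme that makes acetylcholine, was higher in every hippocampus library, at 9.36 to 19.1 FPKM against 6.18 to 9.35 FPKM. Lhx8, which marks these neurons in the forebrain, read 0.298 to 3.55 FPKM in hypothalamus and at most 0.0786 FPKM in hippocampus, where replicates 2 and 4 listed it at 0. The summed level of the 6 ranged from 13.1 to 21.9 FPKM in hippocampus and from 12.2 to 19.5 FPKM in hypothalamus. All 9 meninges markers were found and Col1a2 was listed at 0 in every library. Their sum ranged from 33.8 to 294 FPKM in hippocampus and from 85.5 to 460 FPKM in hypothalamus. In hypothalamus, Ngfr was highest in replicate 3, where the meninges sum (85.5 FPKM) and the cholinergic sum (12.2 FPKM) were lowest. The mean log2(FPKM + 1) of the cholinergic markers was instead lowest in replicate 2 (1.19), where Ngfr was also lowest, and highest in replicate 1 (1.91). In hippocampus, Ngfr was highest in replicate 1, while the meninges sum was highest in replicate 3. Their part in the Ngfr difference was not tested. Choroid plexus markers (8 of 9 found, Otx2 at 0 in every library) summed to 35.6 FPKM in hippocampus replicate 2, to between 2114 and 6011 FPKM in the other 3 and to between 35.2 and 70.9 FPKM in hypothalamus. In FPKM as deposited, Bdnf, Ntrk2 and Ngfr of replicate 2 lay within the range of the other hippocampus libraries, and Ntf3, Ntrk3 and Sort1 were highest there; after scaling Sort1 also lay within that range. The same number of genes was called in each direction when it was left out. Oligodendrocyte markers (6 of 6) summed to between 3871 and 4618 FPKM in hippocampus and between 5793 and 7498 FPKM in hypothalamus, but 2 of them were higher in every hippocampus library and 2 in every hypothalamus library. Microglial markers (6 of 6) summed to between 122 and 170 FPKM in hippocampus and between 195 and 198 FPKM in hypothalamus, with 1 marker higher in every hippocampus library and 2 in every hypothalamus library. Markers of endothelium and pericytes (6 of 6) summed to between 124 and 163 FPKM and between 108 and 147 FPKM, with 2 and 1.

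A plain ratio between 2 genes of a library does not depend on how that library was scaled. Ratios were also taken as log2 of the ratio of (FPKM + 1), which pulls the ratio of a low gene towards that of 1 FPKM. No test was made, since the tables are separate and 4 against 3 libraries cannot go below a two-sided exact permutation p of 0.0571. The share of all gene pairs whose ratios separate the tissues was not computed, and 52.6% of single symbols do, so no ratio is read as particular to these genes. The Bdnf to Ntrk2 ratio was -3.17 ± 0.14 (SD, n = 4) in hippocampus and -5.36 ± 0.47 (SD, n = 3) in hypothalamus, with no overlap. In plain FPKM, Bdnf was 0.0893 to 0.115 times Ntrk2 in hippocampus and 0.0159 to 0.0297 times in hypothalamus. The Ntf3 to Ntrk3 ratio was -1.55 ± 0.12 in hippocampus (SD, n = 4) and -3.62 ± 0.24 in hypothalamus (SD, n = 3), again with no overlap. In plain FPKM, Ntf3 was 0.283 to 0.338 times Ntrk3 in hippocampus and 0.0349 to 0.0578 times in hypothalamus.

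Between the receptors, Ntrk2 was 4.78 to 6.03 times Ntrk3 in hippocampus and 7.29 to 9.21 times in hypothalamus, and the log2 ratio was 2.34 ± 0.14 (SD, n = 4) against 3.01 ± 0.17 (SD, n = 3). The Ngfr to Sort1 log2 ratio was -6.43 ± 0.16 in hippocampus (SD, n = 4) and -3.59 ± 0.25 in hypothalamus (SD, n = 3), with Ngfr under the minimum of 1 FPKM in hippocampus. In plain FPKM, Ngfr was 0.00292 to 0.0049 times Sort1 in hippocampus and 0.0488 to 0.0756 times in hypothalamus. Between the ligands, Bdnf was 1.53 to 2.14 times Ntf3 in hippocampus and 2.57 to 4.7503 times in hypothalamus, so the plain ratios did not overlap. With 1 FPKM added to both genes the ranges of that ratio overlapped, at 0.56 to 0.99 and 0.95 to 1.56 on the log2 scale. They did not overlap without hippocampus replicate 4 or without hypothalamus replicate 2. Bdnf was thus the main ligand transcript of this pair in each of the 7 libraries.

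**Figure D3:**
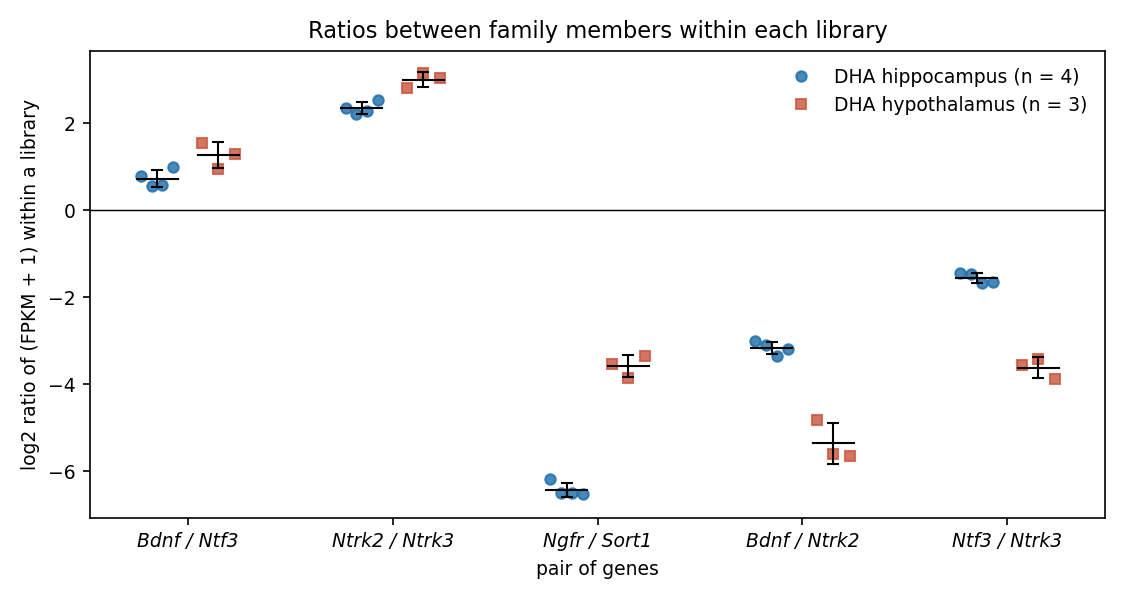
Log2 ratio of (FPKM + 1) between pairs of genes within each library, circles for 4 DHA hippocampus and squares for 3 DHA hypothalamus libraries, with lines for the mean and SD. The Bdnf to Ntf3 points lie between 0.56 and 1.56 in both tissues together, and the Ngfr to Sort1 points, with Ngfr under 1 FPKM in hippocampus, lie between -6.53 and -3.36.

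Other ligands and receptors of the family were examined from a list. Ntf4, which encodes neurotrophin-4, another TrkB ligand, ranged from 0.0647 to 0.766 FPKM in hippocampus and from 0.0770 to 0.317 FPKM in hypothalamus, under the minimum for a comparison. Relatives of Sort1 in the family of sorting receptors did not share one direction. Sorl1 was called higher in hippocampus, at 46.2 ± 9.30 against 23.1 ± 2.998 FPKM (difference 1.27), although not in FPKM as deposited, where its difference was 0.96. Sorcs1 was higher in every hypothalamus library without reaching 2-fold, at 7.83 ± 0.0988 against 3.76 ± 0.310 FPKM (difference -0.71). Sorcs3 was higher in every hippocampus library after scaling, again under 2-fold (difference 0.62, or 0.22 with its loci summed), at 8.60 ± 0.764 against 6.77 ± 1.25 FPKM. Sorcs2 overlapped between the tissues, at 10.8 ± 1.78 against 12.1 ± 0.518 FPKM (difference 0.12, or -0.50 with its loci summed).

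A list of 86 genes of neurotrophin processing and signalling, these relatives included, was then counted. Of these, 73 were found in both tables, 69 had a mean of 1 FPKM or more in either tissue and 66 in both. In all, 14 were called higher in hippocampus (20.3%) and 4 in hypothalamus (5.80%), beside 14.5% and 13.4% of all compared symbols, and 51 were not called. The split was 12 to 5 with upper-quartile and with median-of-ratios scaling, where all symbols split 1117 to 1489 and 1305 to 1286. In FPKM as deposited it was 9 to 8, beside 928 to 1819 for all symbols. The median difference of the list was 0.29 after rescaling and -0.01 as deposited, beside 0.05 and -0.21 for all symbols. Without replicate 1 of both tissues, 19 and 7 genes were called, and the counts over all symbols also rose, to 1944 and 1709. The median of the list was then 0.51, beside 0.08 for all symbols.

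By role, 3 of 9 compared genes of ligand processing were called higher in hippocampus and 1 in hypothalamus, and of 12 other receptors and coreceptors 3 were called higher in hippocampus and none in hypothalamus. Of 36 Trk adaptors and effectors, 8 were called higher in hippocampus and 2 in hypothalamus, which became 6 and 2 with upper-quartile scaling, median-of-ratios scaling or summed loci, and 5 and 3 in FPKM as deposited. Of 12 effectors of p75, none was called higher in hippocampus and 1 in hypothalamus, and this list alone had a negative median difference, -0.33. That median was -0.21 with median-of-ratios scaling, -0.13 with loci summed and -0.19 without replicate 1 of both tissues, where 1 and 4 of these genes were called. With upper-quartile and with median-of-ratios scaling 2 of the p75 effectors were called higher in hypothalamus, and in FPKM as deposited 4. Over all symbols, 1489, 1286 and 1819 were called higher in hypothalamus under these 3 scalings, against 1439 in the comparison above. With 9 to 36 genes a list, the counts by role are descriptions only.

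Among called genes with a mean of 5 FPKM or more in hippocampus, the 5 largest differences were those of Hras, Dusp6, Camk4, Rtn4r and Map2k1, each called under all 4 scalings. Hras, a small GTPase of the pathway from Trk receptors to ERK, read 301, 335, 349 and 241 FPKM in hippocampus replicates 1 to 4. Its hypothalamus libraries read 23.7, 20.5 and 26.3 FPKM, a difference of 3.97 on the log2 scale. Map2k1, the kinase upstream of ERK, ranged from 202 to 294 FPKM in hippocampus and from 70.1 to 109.8 FPKM in hypothalamus (difference 1.79). Dusp6, a phosphatase of ERK, read 27.3 ± 2.98 FPKM in the 4 hippocampus libraries and 4.94 ± 0.692 FPKM in the 3 hypothalamus libraries (mean ± SD; difference 2.67). Camk4, a calcium-dependent kinase that acts on CREB, read 14.5 ± 1.35 and 3.92 ± 0.381 FPKM (difference 2.07). Rtn4r, the Nogo receptor, for which p75 is a coreceptor, read 29.1 ± 3.33 and 8.54 ± 1.03 FPKM (difference 2.01).

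Towards hypothalamus, 3 called genes had a mean of 5 FPKM or more there. Sh2b2, an adaptor of receptor tyrosine kinases, read 0.301 to 0.579 FPKM in hippocampus and 5.16 to 8.94 FPKM in hypothalamus (difference -2.83), and passed the minimum through hypothalamus alone. Its relative Sh2b1 ranged from 5.14 to 13.5 FPKM in hippocampus and from 22.5 to 32.03 FPKM in hypothalamus (difference -1.33). Ngfrap1, an older symbol of Bex3, whose product binds the intracellular part of p75, ranged from 88.8 to 110.3 FPKM in hippocampus and from 289 to 376 FPKM in hypothalamus (difference -1.40).

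**Figure D4:**
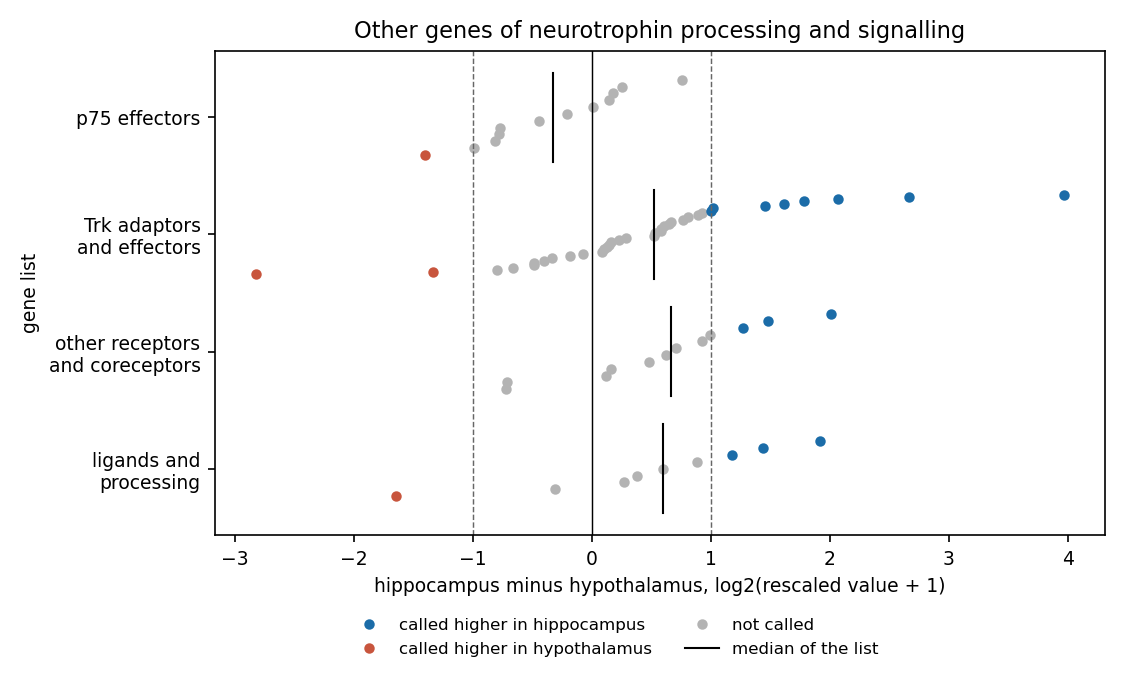
Difference between tissues, hippocampus minus hypothalamus on the log2(rescaled value + 1) scale, for the 69 compared genes of the 4 lists, 1 point per gene, with a black line at each list's median and dashed lines at 2-fold. Called genes are blue (14, higher in hippocampus) or red (4, higher in hypothalamus), and the p75 effectors alone have a median under 0, at -0.33.

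Genes with the most similar profiles were sought among 7782 symbols listed at a single locus in each table, with both tissue means reaching 1 FPKM. Likeness was the root mean square difference between profiles over the 7 libraries on the log2(rescaled value + 1) scale, each centred on its own mean, so a lower value is more alike. For Bdnf these were Ppapdc2 (0.05) and Etv5 (0.09), against a median of 0.87 over all candidates. Etv5 encodes an ETS transcription factor. For Ntf3 they were Dusp4 (0.13) and Diras2 (0.17), and for Sort1 Acvr1 (0.07), a receptor for bone morphogenetic proteins, and Spice1 (0.08). Ngfr was nearest to Snrpd2 (0.07) and Ndufab1 (0.07), Ntrk2 to Il4ra (0.10) and Supt20 (0.10), and Ntrk3 to Smarcc1 (0.05) and Rabgef1 (0.05). Ngfr itself did not reach 1 FPKM in hippocampus, and its difference of -1.68 was -2.25 with 0.1 added instead of 1. Its likeness to these more abundant genes thus depends on the value added. Levels differed widely between genes of like profile. Ndufab1, a subunit gene of mitochondrial complex I, read 167 and 616 FPKM in hippocampus and hypothalamus, far above Ngfr. Dusp4, a phosphatase gene of the same family as Dusp6, read 13.3 and 2.41 FPKM, with a difference of 2.56 beside 2.46 for Ntf3. Ppapdc2 differed by 1.69 beside 1.70 for Bdnf, so much of the likeness lay in the difference between tissues.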

How the data were processed

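The data are FPKM values per locus that the authors computed and deposited as 1 table per tissue, with a status word per value. Per the submitters' processing notes, TopHat, Bowtie, TopHat2, Bowtie2, Cufflinks and Cuffdiff were used and the build was rn5; roles, versions, annotation and strand handling are not given in the sources used here. Of 10839 locus numbers found in both tables, 58 carried the same symbol in both, so the tables were treated as separate runs and joined by symbol. Loci without status OK in every library of a tissue (86 and 24) were left out. Unmapped value columns numbered 0. Symbols of lists were matched by name or by a RefSeq synonym (GRCr8).

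Scaling, the call rule, ratios and profiles were computed with Python 3.11.15 and pandas 2.3.3, as described in the report, with a pseudocount of 1, and the call rule was tested on simulated data. Named genes were the 6 members, other ligands and receptors of the family (values of some listed genes are not reported here), the 5 genes of the pathway lists with the largest difference in each direction among those called with a mean of 5 FPKM or more where they were higher, and the 2 nearest profiles per member; other genes were chosen after their values were seen. The members and lists were chosen with earlier results of these data known. Alternatives were pseudocounts of 0.1 and 5, other scalings (FPKM as deposited, upper quartile, median of ratios), summed loci, other filters on low values, and leaving out replicates. Depth is unknown, so no counting intervals are given.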

Additional observations from a re-analysis of the deposited data

Results flagged for a closer look

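Among 34 results with values in the 4 hippocampus libraries, 1 had a library far from the others, as the share of the group's range taken by the gap beside it; chance flags about 1 in 20 groups of this size. The Ngfr to Sort1 log2 ratio was highest in hippocampus replicate 1, with a gap of 0.910 of the range. The libraries read -6.19, -6.50, -6.50 and -6.53 in replicates 1 to 4, all below the lowest hypothalamus library at -3.86. In that library Ngfr was the highest of the 4 (0.548 FPKM) and Sort1 the lowest (112 FPKM).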

How the results depend on the processing

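No paired analysis was possible because the labels do not say whether same-numbered libraries of the tissues came from the same animals, and the comparisons come from no test. No called difference changed direction under any of the 14 alternatives. Over the 84 combinations of a gene and an alternative, 66 moved by less than the pooled SD between libraries and 18 by more. In FPKM as deposited the differences were 1.304 for Bdnf, 1.84 for Ntf3, 1.501 for Sort1, -0.89 for Ntrk2, -0.23 for Ntrk3 and -1.34 for Ngfr. With upper-quartile scaling they were 1.42 for Bdnf, 1.93 for Ntf3, 1.64 for Sort1, -0.094 for Ntrk3 and -1.26 for Ngfr, and with median-of-ratios scaling 2.01 for Ntf3 and -1.20 for Ngfr. With a pseudocount of 5 they were 1.40 for Bdnf, 1.66 for Ntf3, below 1.77 for Sort1, and -0.83 for Ngfr, which was then no longer called, and with 0.1 they were 2.80 for Ntf3 and -2.25 for Ngfr. The shifts with the pseudocount follow from its size relative to low values. The pseudocount of 1 was added after scaling, so its weight on low values also differed between scalings. Ngfr in hippocampus, for example, had a mean of 0.420 as deposited and 1.21 after rescaling. Beyond that, the cause of the other shifts was not tested.

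Leaving out 1 library at a time gave 1.61 to 1.83 for Bdnf, 2.35 to 2.59 for Ntf3, 1.77 to 1.89 for Sort1, -0.74 to -0.52 for Ntrk2, 0.01 to 0.11 for Ntrk3 and -1.76 to -1.59 for Ngfr. The number of the 6 genes called was 4, or 3 with a pseudocount of 5 or a minimum of 5 FPKM. The pathway list gave 14 to 26 calls against 18, and all symbols 2163 to 3653 against 2999. Taken as plain ratios, an alternative added after seeing the data, the ratio differences were -1.05 for Bdnf to Ntf3, -4.16 for Ngfr to Sort1 and 2.78 for Ntf3 to Ntrk3, against -0.54, -2.84 and 2.07. The unknown depth limits what can be said of low values, such as those of Ngfr in hippocampus and of Ntf4.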
